A study of Mus musculus with 27 samples.

Results

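The peaks of RNA polymerase II (Pol II) phosphorylated on serine 5 of its C-terminal repeats (Ser5P) were compared between mouse embryonic stem cells with a control short hairpin RNA (shCtl) and with one against WDR43 (shWDR43). Every peak in the 4 Ser5P lists was taken, which gave 18523 of the 227913 peaks in the 17 lists of the series, from 4 of its 27 samples. Both groups were the same kind of cell with a genotype labelled wildtype, grown in serum and leukemia inhibitory factor and precipitated with a Cell Signaling Technology antibody to Ser5P, and they differed in the knockdown, labelled shCtl knockdown or shWDR43 knockdown. The labels number 2 Ser5P libraries per group without saying whether the numbers mark cultures or hairpins, so their p-values measure a spread that may be technical, while the header of the RNA table calls its 2 libraries per group biological replicates. A group's consensus was its library 1 peaks that share at least 1 bp with any library 2 peak. The other samples mapped WDR43, hypophosphorylated Pol II (hypoP, antibody 8WG16) and serine 2 phosphorylated Pol II (Ser2P), and measured RNA in 2 shCtl and 2 shWDR43 libraries.

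The C-terminal domain of the largest Pol II subunit is a tail of repeated heptapeptides whose serines are phosphorylated in turn during transcription. Serine 5 is phosphorylated at initiation by Cdk7 of the general factor TFIIH, and the mark recruits the enzyme that caps the RNA, so Ser5P is concentrated near the starts of genes. Serine 2 phosphorylation follows during elongation and builds up towards the 3' ends. WDR43 is a WD-repeat protein of the small subunit processome, the nucleolar complex that processes the precursor of ribosomal RNA.

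Promoters are shown for genes that stand for the patterns described here, because a Ser5P peak lay at each of them in at least 2 libraries. Hist1h1c (linker histone H1) led the histone genes with a peak in all 4 libraries when ranked by the lowest of their 4 scores, at chr13:23738557-23738806. Rpl41 (a ribosomal protein, chr10:128549169-128549418) shares the highest-scoring peak found only in shWDR43 with its neighbour Zc3h10. Ccng1 (cyclin G1, chr11:40755287-40755536) and Mdm2 (the ubiquitin ligase of p53, chr10:117710759-117711008) are p53 target genes with a peak in both shWDR43 libraries and in no shCtl library. Col4a1 (a basement membrane collagen, chr8:11312827-11313076) shares a start region with Col4a2 and had a peak in both shCtl libraries only. Each run gives the 250 bases before the RefSeq start in GRCm38.p6, 5' to 3' on the strand of the gene, which is the plus strand for Hist1h1c and the minus strand for the others. Capitals mark matches on either strand to the TATA motif (TATAAA), the CCAAT motif, the GC box motif (GGGCGG) and the p53 half-site, and no marked motifs overlap in these sequences.
Hist1h1c: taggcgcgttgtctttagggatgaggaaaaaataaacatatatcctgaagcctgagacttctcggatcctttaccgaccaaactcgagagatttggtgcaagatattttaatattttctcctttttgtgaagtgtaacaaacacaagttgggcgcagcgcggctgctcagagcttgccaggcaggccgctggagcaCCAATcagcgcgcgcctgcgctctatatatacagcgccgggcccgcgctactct
Rpl41: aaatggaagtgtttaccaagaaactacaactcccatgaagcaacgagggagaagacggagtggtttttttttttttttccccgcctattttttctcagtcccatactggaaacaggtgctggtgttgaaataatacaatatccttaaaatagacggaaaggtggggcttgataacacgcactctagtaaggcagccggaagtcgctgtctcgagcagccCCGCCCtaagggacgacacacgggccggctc
Ccng1: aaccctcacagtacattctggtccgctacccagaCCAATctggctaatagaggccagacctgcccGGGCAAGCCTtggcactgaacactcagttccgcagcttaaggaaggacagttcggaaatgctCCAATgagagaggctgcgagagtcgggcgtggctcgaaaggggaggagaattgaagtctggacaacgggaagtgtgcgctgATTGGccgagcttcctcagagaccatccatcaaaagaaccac
Mdm2: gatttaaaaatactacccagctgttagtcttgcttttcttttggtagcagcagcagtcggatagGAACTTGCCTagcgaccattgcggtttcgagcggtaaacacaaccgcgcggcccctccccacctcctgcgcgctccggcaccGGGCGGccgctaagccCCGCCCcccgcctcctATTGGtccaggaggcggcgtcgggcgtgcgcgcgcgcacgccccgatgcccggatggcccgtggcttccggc
Col4a1: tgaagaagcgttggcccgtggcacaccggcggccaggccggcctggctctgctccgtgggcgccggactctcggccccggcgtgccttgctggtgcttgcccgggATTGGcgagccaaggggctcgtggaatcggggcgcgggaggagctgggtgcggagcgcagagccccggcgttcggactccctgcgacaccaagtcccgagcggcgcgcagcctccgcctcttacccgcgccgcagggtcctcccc
None of them holds the TATA motif, and a match is a description of the letters only.

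The knockdown was checked first in the RNA. Wdr43 (NM_175639, chromosome 17, 71965555 to 72008371 on mm9) had 82.3 and 78.2 FPKM in shCtl and 21.2 and 20.7 in shWDR43. The 2 groups lay far apart, with a log2 fold change of -1.89 ± 0.12 (SE, n = 2 per group) and an adjusted p of 0.000751 in limma. FPKM are fragments scaled to transcript length and library size; the deposited table does not name its unit, which was taken from the use of Cufflinks. Its values are on a spike-in scale whose steps are not stated, and the fold change is on the log2(FPKM + 1) scale, which understates changes of low values. Within 1 kb of an end of the Wdr43 locus a Ser5P peak was called in shCtl library 2 (score 70.85) and in both shWDR43 libraries (86.56 and 126.0), and none was called in shCtl library 1. The score is the authors' own value for a peak, at least 50 in each list, and ranks are read only within a list. Counts of peaks past a score of 100 apply 1 threshold to lists whose scores may not be on a common scale.

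More Ser5P peaks were called after WDR43 knockdown. The lists held 1879 and 2520 peaks in shCtl and 6535 and 7589 in shWDR43, a mean of 2200 ± 453 against 7062 ± 745 (SD, n = 2). Every shWDR43 list was longer than every shCtl list, by 3.21 times on average, and the exact permutation test (two-sided) gave p = 0.333, the smallest that 2 against 2 libraries allow. Covered length was 1.45 and 1.96 Mb in shCtl and 6.81 and 7.72 Mb in shWDR43. Peaks were wider in shWDR43, with medians of 838 and 827 bp against 651 and 674 bp. Peaks with a score of 100 or more numbered 254 and 315 in shCtl and 1190 and 1470 in shWDR43. For the other Pol II forms, hypoP lists held 19542 and 19561 peaks in shCtl and 31473 and 24485 in shWDR43, and Ser2P lists 3878 and 4319 against 3501 and 3504. Whether the forms differ in their response was not tested. Neither read depth nor the caller's threshold was given in the sources used here. The lists carry no measure of depth or enrichment, so the part of either in their length was not tested.

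**Figure D1:**
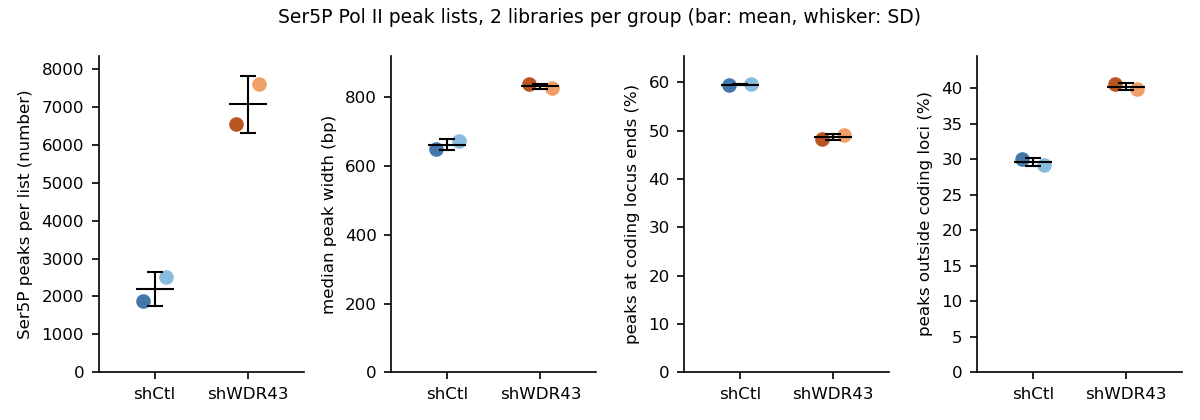
Ser5P peak lists by library. Points are single libraries, short bars the mean and whiskers the SD of 2 libraries; the panels give peaks per list, median width in bp, and the percentage of peaks within 1 kb of an end of a protein-coding locus or outside such loci. The shCtl and shWDR43 points do not overlap in any panel.

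A smaller share of the shWDR43 lists lay at gene ends. Peaks within 1 kb of either end of a protein-coding locus made up 59.4% and 59.6% of the shCtl lists and 48.2% and 49.2% of the shWDR43 lists. Peaks outside protein-coding loci made up 30.1% and 29.2% of the shCtl lists and 40.6% and 39.9% of the shWDR43 lists. Neither share overlapped between the groups (exact permutation p = 0.333 for each, the smallest possible). Of the consensus sets, 52.7% in shCtl and 52.8% in shWDR43 lay at locus ends. With scores of 100 or more the direction turned, with 19.9% of the shCtl and 44.3% of the shWDR43 consensus at locus ends. Oriented loci with a Ser5P peak at the start numbered 950 and 1245 in shCtl and 2704 and 3216 in shWDR43.

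End peaks lay mostly at starts in both groups. Among peaks at an end of an oriented locus, 3.04% and 2.53% in shCtl and 4.42% and 4.75% in shWDR43 lay at the far end only. For Ser2P in shCtl the same share was 60.7% and 60.9%, the opposite end of the gene. In the bin from 0 to 200 bp after the start, 292 and 411 peak centres fell in shCtl and 927 and 1157 in shWDR43, which were 15.5%, 16.3%, 14.2% and 15.2% of the lists. Orientation was known for 16081 of 20192 protein-coding loci (79.6%).

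**Figure D2:**
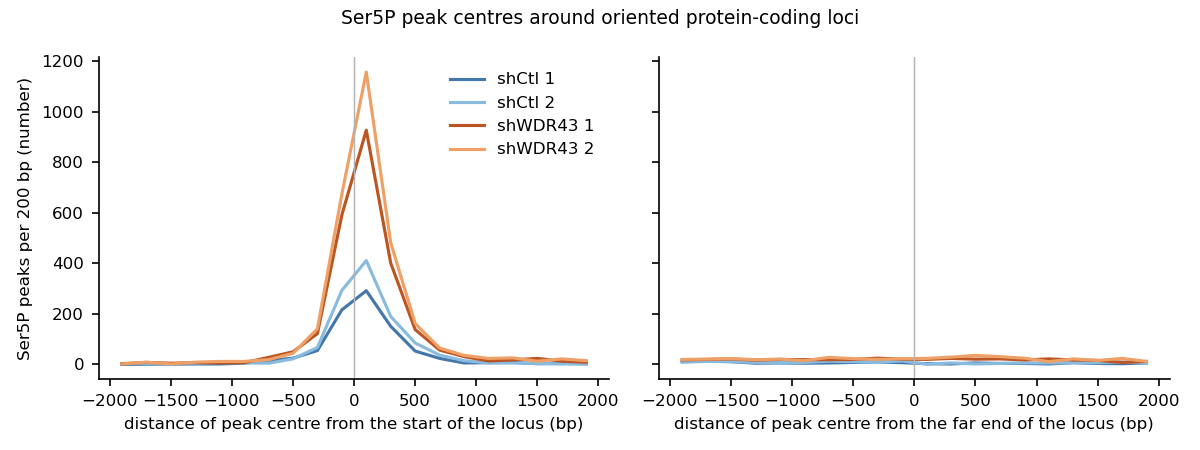
Number of Ser5P peak centres per 200 bp against the distance in bp from the start (left) and the far end (right) of oriented protein-coding loci, 1 line per library. All 4 libraries peak just after the start, at 292 and 411 centres in shCtl and 927 and 1157 in shWDR43, and are nearly flat around the far end.

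Higher-scoring peaks overlapped between libraries more often than lower-scoring ones. Of the highest-scoring 10% of each list, 96.3% and 90.5% in shCtl and 95.3% and 94.1% in shWDR43 overlapped a peak of the other library of the group. Of the lower-scoring 50% of each list, 23.6% and 16.03% did so in shCtl and 43.1% and 32.9% in shWDR43. The top 10% of the shCtl lists was found almost whole in shWDR43 (98.9% and 96.8% in either library), whereas 65.4% and 63.3% of the top 10% of the shWDR43 lists had a peak in either shCtl library. Whole shCtl lists overlapped shWDR43 library 2 more often (60.3% and 56.3%) than they overlapped each other (38.9% and 29.1%). When each list was held to its 1879 highest-scoring peaks, the shCtl lists shared 34.2% and 34.3% of their peaks, the shWDR43 lists shared 52.8%, and lists of different groups shared 31.7% to 32.8%. At equal length, then, a shCtl list was about as far from the other shCtl list as from a shWDR43 list.

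The consensus sets held 731 peaks in shCtl and 3800 in shWDR43, and 71.8% of the shCtl set overlapped the shWDR43 set. Peaks of the shWDR43 consensus with no peak in either shCtl library are called gained (2424, or 63.8% of that set), those of the shCtl consensus with no peak in either shWDR43 library are called lost (96), and the names describe the lists only. Of the gained peaks 46.3% (exact 95% interval 44.3 to 48.3, counting error only) lay at locus ends, against 64.2% (61.6 to 66.7) of the 1376 shWDR43 consensus peaks that also had a shCtl peak. These 1376 are called shared. Of the 635 shCtl consensus peaks that also had a shWDR43 peak, 51.5% (47.5 to 55.4) lay at locus ends, so the gap depends on the list used. Gained peaks had a highest score of 447, and 19.1% reached 100. The highest-scoring shared peaks lay at the Rn45s ribosomal RNA locus (mm9 chr17:39979887-39985832) and at 2 noncoding regions (chr2:98506247-98507666 and chr11:108872912-108873661), with scores of 2666 or more in all 4 lists, up to 3100. The highest gained peak covered the neighbouring genes Zc3h10 and Rpl41 (chr10:127984189-127986649), followed by a peak at the long noncoding RNA gene Gm17692 (chr17:6492701-6493964) and one near no listed locus (chr5:15961164-15961960). The highest lost peaks lay at Il6ra (an interleukin 6 receptor subunit, chr3:89684270-89684850), 9030025P20Rik (chr17:15126534-15131190) and Eif4a2 (a translation initiation helicase, chr16:23107143-23109037).

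The Pol II and WDR43 maps, which did not enter the choice of these peaks, overlapped the shared peaks more than the gained ones. A hypoP consensus peak of shCtl lay under 92.5% of shared and 64.7% of gained peaks, and one of shWDR43 under 92.4% and 65.8%. A shCtl Ser2P consensus peak lay under 25.1% of shared and 9.90% of gained peaks. A WDR43 peak from DMSO-treated cells lay under 91.2% of shared and 58.6% of gained peaks, and a peak of any of 3 WDR43 lists (DMSO, FB and cFB knock-in) under 98.1% and 74.3%. Of the 96 lost peaks, 57.3% lay at a shCtl hypoP peak and 91.7% at a WDR43 peak. Gained peaks were narrower than shared ones (median 870 against 1075 bp) and lower in score (72.5 against 92.7), and both can bear on overlap.

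Some gained peaks met neither a hypoP peak nor a peak of the 3 WDR43 lists. Of 2424 gained peaks, 560 (23.1%) overlapped no hypoP peak of any of the 4 hypoP lists and no peak of the 3 WDR43 lists, against 10 of 1376 shared peaks (0.727%). Of these 560, 439 lay outside protein-coding loci and 20 at a locus end, and their median score was 74.4. In whole lists such peaks made up 5.16% and 6.35% in shCtl and 18.2% and 18.3% in shWDR43, with no overlap between the groups. The X chromosome also held a larger share of the shWDR43 lists, 2.75% and 3.004%, than of the shCtl lists, 1.33% and 1.51%. Without the peaks that stood alone these shares were 2.54% and 2.74% against 1.23% and 1.36%. Of the 77 gained peaks on X, 55 lay outside protein-coding loci and 8 at a locus end.

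Genes were then sorted by the Ser5P peaks at their ends. Of 20192 protein-coding loci, 286 (1.42%) had an end peak in all 4 libraries (kept), 1285 (6.36%) had one in both shWDR43 libraries and in no shCtl library (gained), and 61 (0.302%) had one in both shCtl libraries and in no shWDR43 library (lost). Neighbouring loci can share a peak, and these were 253, 1134 and 56 distinct peaks. With 1879 peaks from each list they were 149 kept, 214 gained and 141 lost, and with scores of 100 or more 41, 290 and 3.

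Of the 6 kept genes with the highest scores 3 were histone genes. Lars2 (mitochondrial leucyl-tRNA synthetase) had scores of 2048 and 2921 in shCtl and 2308 and 2920 in shWDR43, which placed it between the 8th and 13th position of each list. Gtf3c6 (a subunit of the Pol III factor TFIIIC) had scores of 313, 300, 443 and 487 in the same order, and Eapp (a protein that binds E2F factors) 178, 273, 376 and 350. Hist1h1c, Hist2h3c2 and Hist1h3e completed the 6 highest. Their scores were 201 and 316, 259 and 195, and 184 and 231 in shCtl. In shWDR43 they were 861 and 1072, 769 and 733, and 752 and 770. Lars2 also had an end peak in each hypoP and Ser2P consensus and in each WDR43 list used here. Among these was the WDR43 list under actinomycin D, in which 0.258% of protein-coding loci had an end peak.

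Histone genes had end peaks in most loci of the list. Of 64 loci of the histone clusters, 48 and 49 had an end peak in the shCtl libraries and 58 and 60 in the shWDR43 libraries, against 6.18%, 8.14%, 17.6% and 20.7% of all protein-coding loci. Of the 64, 42 were kept, 3 gained and none lost, and with equal list lengths the number kept was also 42. Within the lists their distinct peak scores ranked high. In the highest-scoring 10% of the list stood 10 of 29 and 13 of 32 in shCtl and 29 of 32 and 30 of 34 in shWDR43. The 10% is cut from lists of different length, so these counts were not compared between the groups. By position in its list, the Hist1h1c peak stood 106th and 74th in shCtl and 30th and 28th in shWDR43. Hist2h3c2 stood 81st and 108th against 34th and 44th. Gtf3c6, which is not a histone gene, stayed at 73rd and 78th against 74th and 74th. Whether positions differ between the groups was not tested. Among the promoters of kept histone genes (39 promoters of 38 genes), 82.1% held CCAAT and 48.7% TATAAA within 250 bases before the start, on either strand. Of all 19602 promoters of the 16050 genes matched to RefSeq, 35.3% held CCAAT and 11.3% TATAAA.

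**Figure D3:**
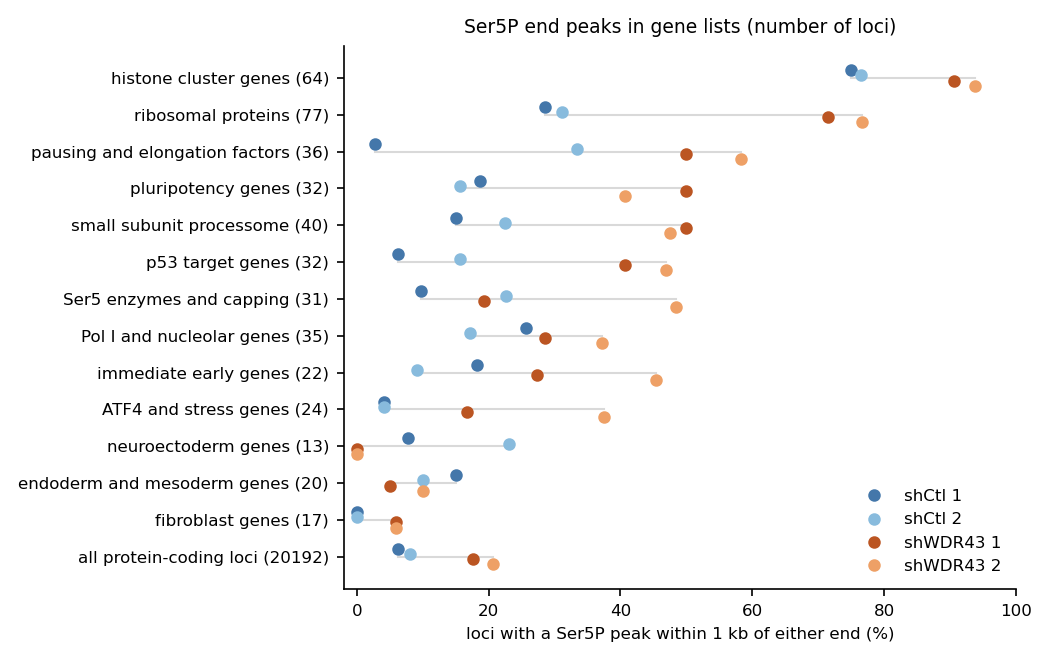
Percentage of loci in each gene list with a Ser5P peak within 1 kb of either end, by library, with the number of loci in brackets. Histone cluster genes have a peak at 48 to 60 of 64 loci in all 4 libraries, ribosomal protein genes at 28.6% and 31.2% in shCtl and 71.4% and 76.6% in shWDR43, and all protein-coding loci between 6.18% and 20.7%.

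Ribosomal protein genes had end peaks more often in the shWDR43 lists, as did all loci tested for RNA. Of 77 loci, 22 and 24 had an end peak in shCtl and 55 and 59 in shWDR43. These were 28.6%, 31.2%, 71.4% and 76.6% of the list, against 9.82%, 12.7%, 30.1% and 35.3% of loci tested for RNA. The 2 shCtl counts lay well below the 2 shWDR43 counts. Of the 77, 26 were gained (33.8%, against 6.36% of all protein-coding loci and 11.2% of those tested for RNA) and 9 kept. In the highest of 5 bins of shCtl RNA level, 380 of 2134 tested loci were gained. Of the 77, 4 were lost, among them Rpl3 (5.19%, against 0.302% of all protein-coding loci). With equal list lengths 10 were gained, 5 kept and 4 lost. Rpl41 had the highest gained score, 447 and 313 in the 2 shWDR43 libraries, on a peak that it shares with Zc3h10 (a zinc finger gene). Rps24 had 74.99 and 103.4. All 76 tested members were lower in shWDR43 (limma, adjusted p under 0.05), with a median of -0.83 on the log2 scale, and 60 after centring each library on its median. Before centring 44.0% of all tested loci were lower, and 84.1% in the highest bin of shCtl RNA level.

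Some of the other highest-scoring gained genes sit beside a gene that already had Ser5P in shCtl. The peak at Tead3 (a TEAD transcription factor, scores 258 and 264) has the scores of the peak at its neighbour Rpl10a, whose end peak was called in all 4 libraries. That at Slc35g3 (a solute carrier, 209 and 198) has the scores of the peak at Polr2a, the gene of the largest Pol II subunit, which had a score of 113.8 in shCtl library 2. Slc39a10 (a zinc transporter, 216 and 266) and Prss12 (a serine protease, 221 and 238) completed the 6.

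In 5 bins of RNA level, the highest bin had an end peak more often than the lowest in each library. From the lowest to the highest bin of mean shCtl FPKM, the share went from 5.44% to 15.2% and from 7.54% to 18.6% in the shCtl libraries, and from 16.2% to 43.5% and from 18.6% to 51.4% in the shWDR43 libraries. The share was higher in each bin than in the one before it, except in shCtl library 1, where it was 10.7% in the third bin and 9.75% in the fourth. Both shWDR43 libraries lay above both shCtl libraries in every bin. Among the 9523 loci with too little RNA to test, the shCtl libraries had 2.09% and 2.98% and the shWDR43 libraries 3.49% and 4.43%. Median shCtl levels were 21.5 FPKM for kept, 15.8 for gained and 2.10 for lost genes, against 1.35 for all protein-coding loci. Promoters of all 3 classes were richer in G and C over 250 bases, with medians of 65.6% for kept, 63.2% for gained and 63.4% for lost genes, against 53.2% for genes with no Ser5P end peak in any library. GGGCGG stood on either strand in 65.9%, 66.5% and 54.7% of these promoters, against 35.5% for genes with no end peak and 44.9% of all promoters.

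RNA was lower in shWDR43 for many genes on the spike-in scale. Of 12452 genes tested, 5322 (42.7%) were lower and 760 (6.1%) were higher (limma, adjusted p under 0.05), and the median change was -0.39 on the log2 scale. In bulk samples fewer cells of a type and less RNA per cell cannot be told apart. When each library was centred on its median, 2606 genes were lower, 1615 were higher and the median was -0.06. With no filter on low values, 633 of 38582 genes were lower and 277 were higher. When any 1 of the 4 RNA libraries was left out, limma called no gene, with 3928 to 4902 genes lower and 576 to 730 higher at an unadjusted p under 0.05. Stem cell markers were present in all 4 RNA libraries, with a summed level of 8 markers of 4769 and 4808 FPKM in shCtl and 2616 and 2467 in shWDR43. Fibroblast markers summed to 32.8 and 45.3 FPKM against 41.5 and 71.9, and 2 of 8 were at 0 throughout. Trophectoderm markers summed to 5.2 FPKM in both shCtl libraries and 11.0 and 13.3 in shWDR43, with 2 of 5 higher, and primitive endoderm markers to 3.8 and 3.9 against 5.8 in both, with 1 of 5 higher. Neuroectoderm markers went the other way, with 9.1 and 7.7 FPKM in shCtl and 6.2 and 6.3 in shWDR43, and 1 of 3 lower. Mesoderm markers summed to 3.0 FPKM in both shCtl libraries and 1.9 and 1.7 in shWDR43, with 0 of 3 called. The trophectoderm, primitive endoderm, neuroectoderm and mesoderm sums did not overlap between the groups. The markers' part in the results was not tested.

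Genes with Ser5P end peaks were lower in RNA somewhat more often than the rest. Of 10669 tested protein-coding genes, 44.0% were lower and 6.28% higher. The gained genes tested numbered 1193 (11.2% of those tested), of which 648 (54.3%) were lower and 53 (4.44%) were higher, and their median was -0.47 on the log2 scale. The kept genes tested numbered 270 (2.53%), of which 157 (58.1%) were lower and 13 were higher, and their median was -0.56. Of the 35 lost genes tested (0.328%), 16 were lower and 3 were higher. After centring, 326 gained genes were lower and 110 higher, and 102 kept genes were lower and 24 higher. Over tested genes, an end peak was called at 9.82% and 12.7% in the shCtl libraries and at 30.1% and 35.3% in the shWDR43 libraries. Within bins of shCtl RNA level the gained genes and the genes with no end peak in either shWDR43 library had nearly the same medians. From the lowest bin to the highest these were 0.00, -0.25, -0.40, -0.52 and -0.72 for gained genes and -0.02, -0.26, -0.36, -0.51 and -0.76 for genes without a shWDR43 peak. The 2 sets of medians lay within a few hundredths of each other in each bin, and the difference was not tested.

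**Figure D4:**
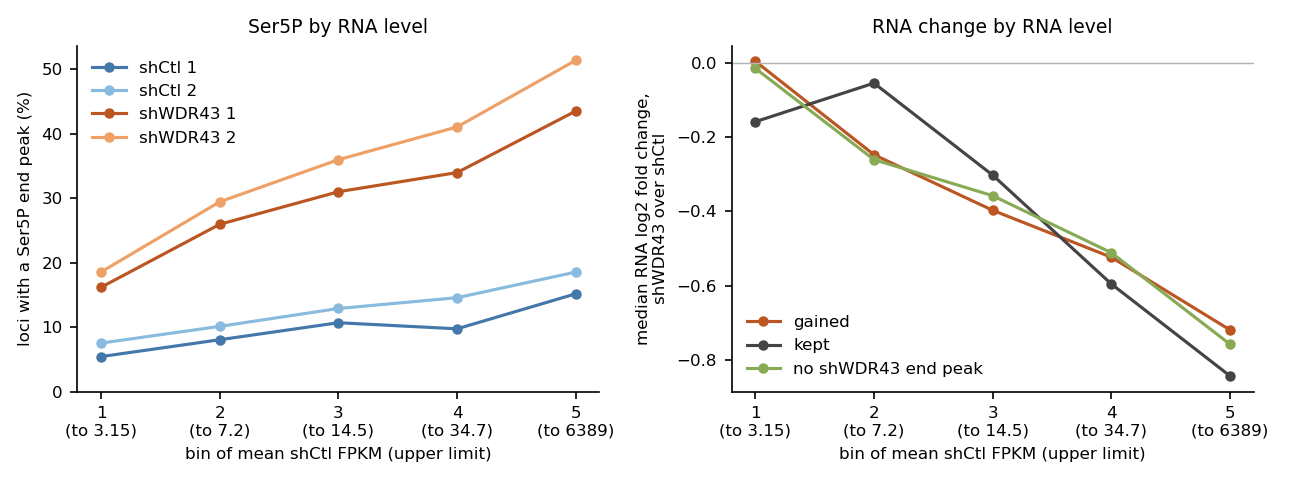
Left, percentage of protein-coding loci with a Ser5P end peak in each library, and right, median RNA log2 fold change (shWDR43 over shCtl) of genes with gained, kept or no shWDR43 end peaks, over 5 bins of mean shCtl FPKM labelled with their upper limit. The share of loci with a peak is higher in the higher bins in both shWDR43 libraries, from 16.2% to 43.5% and from 18.6% to 51.4%, and the gained line (0.00 to -0.72) runs beside the line of genes without a shWDR43 peak (-0.02 to -0.76).

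Gained Ser5P was found on genes whose RNA went either way. Plk2 (polo-like kinase 2) had 23.6 and 17.5 FPKM in shCtl and 90.8 and 72.2 in shWDR43, a log2 fold change of 1.94 ± 0.18 (SE; limma adjusted p = 0.00109). Ccng1 had 77.3 and 57.6 against 219.7 and 201.2 FPKM, and its log2 fold change was 1.64. Ddit4 (a stress-induced inhibitor of mTORC1) and Atf3 (a stress-induced transcription factor) rose by 1.61 and 1.49 on the log2 scale. The groups did not overlap for any of the 4. At the other extreme, Inhbb (the beta B subunit of activin) had 15.0 and 16.9 FPKM in shCtl and 2.4 in both shWDR43 libraries, a log2 fold change of -2.32 ± 0.14 (adjusted p = 0.000717). Tdgf1 (the Nodal co-receptor Cripto) had 353.6 and 353.7 against 87.0 and 70.3 FPKM, a log2 fold change of -2.16. Glul (glutamine synthetase) had a log2 fold change of -1.81 and Rpl22l1 (a paralog of a ribosomal protein) one of -1.79. In all 8 genes a Ser5P end peak was called in both shWDR43 libraries and in neither shCtl library, with scores between 56.2 and 128.2.

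Among p53 target genes Ser5P end peaks were called at 2 and 5 of 32 loci in shCtl and at 13 and 15 in shWDR43. These were 6.25%, 15.6%, 40.6% and 46.9% of the list, against 9.82%, 12.7%, 30.1% and 35.3% of all tested loci, which were also higher in shWDR43. Trp53inp1 (a p53-induced stress protein) was kept, and Plk2, Ccng1, Mdm2, Sesn2 (sestrin 2), Bax (a pro-apoptotic BCL2 family protein) and Rps27l were gained (18.8%, against 11.2% of tested loci). With equal list lengths 1 of the 32 loci was gained (Bax). Of the 32 genes 15 were higher and 3 lower in RNA (median 0.44), and 23 were higher and 2 lower after centring. Among the 6 gained genes Plk2, Ccng1 and Mdm2 were higher and Rps27l lower (log2 fold change -0.30), while Sesn2 (0.21) and Bax (-0.19) did not pass. The largest rises of the list, Perp (a desmosomal apoptosis effector, 2.16) and Dcxr (a xylulose reductase, 2.02), had no Ser5P end peak in any library. The p53 half-site was found in 33.3% of the 33 promoters of list members matched to RefSeq and in 6.22% of all promoters, and in 5.28% of the promoters of all gained genes.

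Among 32 pluripotency genes, 6 and 5 had an end peak in shCtl and 16 and 13 in shWDR43. Klf4 and Klf5 were kept, 7 were gained, among them Tbx3 and Tdgf1 (21.9%, against 11.2% of tested loci), and Trim28 (a corepressor) was lost. With equal list lengths none of the 32 was kept or gained and 1 was lost. Of the 32, 26 were lower in RNA and none higher (median -0.80), and 16 were lower and 1 higher after centring. Before centring 44.0% of all tested loci were lower, with 61.0% in the fourth and 84.1% in the highest bin of shCtl RNA level. Klf4 had peak scores of 59.1 and 99.6 in shCtl and 75.7 and 142.5 in shWDR43, and its RNA fell by 0.52 on the log2 scale. Of the core factors, Sox2 had an end peak in both shCtl libraries (82.2 and 51.7) and in shWDR43 library 1 (90.9), Nanog had one in shWDR43 library 2 only (69.2), and Pou5f1 had none in any library.

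Genes of the small subunit processome, to which WDR43 belongs, had end peaks at 6 and 9 of 40 loci in shCtl and 20 and 19 in shWDR43. These were 15%, 22.5%, 50% and 47.5% of the list, against 9.82%, 12.7%, 30.1% and 35.3% of tested loci. Cirh1a and Bms1 were kept, and Dcaf13, Fbl, Nat10, Nop58 and Wdr36 were gained (12.5%, near the 11.2% of tested loci). With equal list lengths 0 were kept, 1 was gained (Fbl) and 1 was lost. Of the 40, 35 were lower in RNA and none higher. For 35 genes of Pol I and the nucleolus the counts were 9 and 6 against 10 and 13, a smaller gap. These were 25.7%, 17.1%, 28.6% and 37.1% of the list. The shCtl shares lay above those of tested loci and the shWDR43 shares near them. Ubtf, Rrs1, Npm1, Gnl3 and Ncl were kept (14.3%, against 2.53% of tested loci). Ddx21, Nolc1 and Nop2 were gained (8.57%, against 11.2%). With equal list lengths 4 were kept, 0 gained and 1 lost. Ncl (nucleolin) had 680.5 and 563.6 FPKM in shCtl and 257.6 and 189.4 in shWDR43, a log2 fold change of -1.48. Of these 35 genes, 32 were lower and none higher. The RNA counts of both lists are those before centring each library on its median. Of all tested protein-coding loci 44.0% were lower, with 61.0% in the fourth and 84.1% in the highest of the 5 bins of shCtl RNA level. The part of RNA level in the counts of both lists was not tested.

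Of the listed genes that set or read Ser5P, 0 were kept, gained or lost. Of 31 loci for Ser5 kinases, phosphatases, capping enzymes and other factors, 3 and 7 had an end peak in shCtl and 6 and 15 in shWDR43. The 0 in each class stands against 1.42%, 6.36% and 0.302% of all protein-coding loci and 2.53%, 11.2% and 0.328% of tested ones. A list of this size would hold few. Ssu72, Fam103a1, Cdk7 and Gtf2h1 had an end peak in both shWDR43 libraries and in shCtl library 2. Of all protein-coding loci, 11.3% had one in both shWDR43 libraries. The groups overlapped, since shCtl library 2 had more than shWDR43 library 1. Cdk7 had 10.1 and 9.7 FPKM in shCtl and 7.5 and 6.1 in shWDR43 (log2 fold change -0.49 ± 0.15, limma adjusted p = 0.0317), which did not pass after centring (-0.16). Of 30 tested members 23 were lower (44.0% of all tested loci were) and 0 higher, and 8 were lower after centring. Setd1b (a histone methyltransferase of a complex that binds Ser5P, -1.07) and Cdk8 (the Mediator kinase, -1.04) had the lowest values. Polr2a, which carries the C-terminal domain, had 102.9 and 98.5 FPKM in shCtl and 116.2 and 103.1 in shWDR43, and its log2 fold change of 0.12 did not pass (adjusted p = 0.443).

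Factors of pausing and elongation had end peaks at 1 and 12 of 36 loci in shCtl and 18 and 21 in shWDR43, so the shCtl libraries were far apart. Ccnt1 and Hexim1 (a cyclin of P-TEFb, the kinase that releases paused Pol II, and its inhibitor) were among the 5 gained (13.9%, near the 11.2% of tested loci), and 1 locus of the list was gained with equal list lengths. Of the 36, 24 were lower in RNA (44.0% of all tested loci were) and none higher, and 10 were lower and 2 higher after centring.

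RNA of histone genes with kept Ser5P did not follow the other kept genes. Of 39 tested kept histone genes 10 were higher and 7 lower (median 0.17), and of the 231 other kept genes 3 were higher and 150 lower (median -0.62). Over all tested members of the list, H2A genes were mostly lower (10 of 13 lower and 1 higher, median -1.24), while the others were mostly higher or uncalled: 5 of 12 H4, 4 of 13 H2B, 3 of 12 H3 and 1 of 5 H1 genes were higher, and 1 H2B gene lower. Hist1h1c had 6.8 and 8.8 FPKM in shCtl and 16 and 18 in shWDR43 (log2 fold change 1.04), and Hist1h2ao 294.1 and 348.4 against 116.4 and 100.9 (-1.55). RNA was selected by poly(A), which most histone transcripts lack, and the genes are near-identical copies that share reads and often a Ser5P peak, so single values are uncertain. Among kept genes of other kinds the largest falls were H2afz (a replication-independent H2A variant, -1.64), Ppp2r5a (a PP2A regulatory subunit, -1.57) and Hmgb1 (a chromatin protein, -1.55), and the largest rise was Trp53inp1 (1.27).

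Genes with lost end peaks ranged from silent to highly transcribed. Plxnd1, Foxe3, C2cd4d and Fam84b, among the 6 highest in score, had at most 0.4 FPKM in any RNA library, and Eif4a2 and Mcl1 (an anti-apoptotic BCL2 family protein) had between 104.5 and 180.9. Foxe3 (a forkhead factor of the lens) had scores of 88.8 and 113.9 in shCtl. Col4a1 and Col4a2 share 1 peak between their starts, with scores of 89.9 and 53.6. Their RNA was higher in shWDR43: Col4a2 had 4.6 and 5.1 FPKM in shCtl and 11.0 and 13.4 in shWDR43 (log2 fold change 1.17), and Col4a1 rose by 0.97. Efna5 (an ephrin) rose by 0.88. Pgk1 (phosphoglycerate kinase, -1.60), Ptma (prothymosin alpha, -1.52), Rpl3 (-1.28) and Trim28 (-1.005) had the largest falls. A hypoP peak of shCtl lay at the ends of 68.9% of lost genes, against 96.2% of kept and 95.6% of gained genes, and a peak of the FB-tagged WDR43 list at 93.4%, 99.3% and 96.8%.

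Ser2P was less common at gained than at kept genes. A shCtl Ser2P consensus peak lay at the ends of 46.5% of kept, 30.7% of gained and 8.20% of lost genes, against 13.5% of all protein-coding loci. With shWDR43 Ser2P peaks the shares were 36.4%, 30.4% and 16.4%. Kept genes also had more RNA (median 21.5 against 15.8 FPKM in shCtl), whose part in this was not tested. Histone genes made up 42 of the 286 kept genes and 3 of the 1285 gained genes, and their part was not tested either.

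End peaks at genes of other lineages were few in number, and these lists are short. Of 17 fibroblast genes none had one in shCtl and 1 (Fn1, fibronectin) in each shWDR43 library. Of 13 neuroectoderm genes 1 and 3 (7.69% and 23.1%) had one in shCtl and none in shWDR43. Of 20 endoderm and mesoderm genes the counts were 3 and 2 (15% and 10%) against 1 and 2 (5% and 10%). The shCtl shares of the neuroectoderm and of the endoderm and mesoderm lists were not below the 6.18% and 8.14% of all protein-coding loci. Of 14 trophectoderm genes the counts were 1 and 1 (7.14% each) against 1 and 2 (7.14% and 14.3%). Ascl2 was gained (7.14%, near the 6.36% of all protein-coding loci). The shWDR43 shares of these lists and of the fibroblast list (5.88% in each library) were below the 17.6% and 20.7% of all protein-coding loci. Among 22 immediate early genes, whose RNA is quickly induced by growth signals, 4 and 2 had an end peak in shCtl and 6 and 10 in shWDR43, with Jund kept and Atf3, Dusp1 and Junb gained (13.6%, near the 11.2% of tested loci), and 0 were gained with equal list lengths. Among 24 genes of ATF4 and the stress response 1 and 1 had one in shCtl and 4 and 9 in shWDR43. These were 4.17%, 4.17%, 16.7% and 37.5% of the list, against 9.82%, 12.7%, 30.1% and 35.3% of tested loci. Of the 24, 3 were gained (Ddit4, Sesn2 and Slc3a2), or 12.5%, near the 11.2% of tested loci. With equal list lengths 1 of them (Ddit4) was gained. Atf4 itself was kept while its RNA fell by 0.82 on the log2 scale.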

How the data were processed

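The authors deposited 1 Ser5P peak list per library, with positions and a score for each peak, aligned with Bowtie2 to mm9 per the submitters' processing notes. The caller's settings and the depth were not given in the sources used here. Peaks were called per library. The authors also deposited 1 RNA value per gene and library in a spike-in table, read as FPKM because TopHat and Cufflinks are named in the submitters' processing notes. No per-sample column was left unassigned. From these, log2(FPKM + 1) of genes with a mean of at least 1 FPKM was tested with limma 3.58.1 (intensity trend, R 4.3.3) and adjusted by the Benjamini-Hochberg method. The fit was tested on simulated data with known changes. The deposited table also holds the authors' group means, a fold and an unadjusted p-value, none of which were used, and its header counts 2 biological replicates per group. Replicate numbers were not used to pair samples.

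A locus end was within 1 kb of either end of a locus in the deposited table. Strand came from RefSeq by gene symbol and was used for starts and far ends only, and promoters came from RefSeq GRCm38.p6. Consensus, gained and lost peaks used overlaps of at least 1 bp. Alternatives were equal list lengths, a score of 100, 50% overlap, merging, other windows, leaving out each library, and other RNA settings. The members and gene lists were chosen with earlier results of these data known. Named genes were Wdr43, the 6 highest-scoring genes per class and its 4 largest RNA rises and falls, the extreme 2 members per list, all Ser5 enzymes, and the 3 highest peaks per set; some are left out. Mdm2 and the members named to make up a list's count were chosen after their values were seen. Some list members are not reported here by name. RNA was poly(A)-selected, and its counting is not stated to use strand, so overlapping genes are uncertain. Shares carry exact (Clopper-Pearson) 95% intervals where given.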

Additional observations from a re-analysis of the deposited data

How the results depend on the processing

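The shWDR43 consensus held more peaks than the shCtl consensus with a score of 100 or more and with equal lists. With a score of 100 or more, the consensus held 186 peaks in shCtl and 716 in shWDR43, 93.0% of the shCtl set overlapped the shWDR43 set, 19.9% and 44.3% lay at locus ends, and 41 genes were kept, 290 gained and 3 lost. With the same number of peaks per list, the shWDR43 consensus held 993 peaks, 53.4% of the shCtl set overlapped it, 43.6% of it had no shCtl peak and 46.8% of it lay at locus ends, with 149 genes kept, 214 gained and 141 lost. Without peaks at WDR43 peaks called under actinomycin D, 57.0% of the shCtl consensus lay at locus ends. Leaving out 1 Ser5P library replaced a consensus by a single list: consensus peaks ranged from 731 to 2520 in shCtl and from 3800 to 7589 in shWDR43, the overlapping share from 41.6% to 81.5%, the share without a shCtl peak from 72.6% to 77.3%, the share at locus ends from 52.7% to 59.6% in shCtl and from 48.2% to 52.8% in shWDR43, kept genes from 317 to 706, gained genes from 1577 to 2751 and lost genes from 92 to 495.

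With libraries centred on their median, RNA calls were 2606 lower and 1615 higher, for kept genes 102 and 24 (median -0.23), for gained genes 326 and 110 (-0.14) and for lost genes 10 and 6 (-0.071), and the log2 fold change of Lars2 turned to 0.0043. With no filter on low values, 481 of the same 12452 genes were lower and 56 higher, with 8 and 0 for kept, 52 and 7 for gained and 3 and 0 for lost genes, whose median was -0.11; the fit then spans all 38582 loci. With a pseudocount of 0.1 the median of lost genes was -0.45. With scores of 100 or more the RNA median was -0.28 for kept and -0.58 for gained genes, and with equal lists -0.43 for kept, -0.53 for gained and -0.57 for lost genes, which turns the order of the classes. Without any 1 RNA library limma called 0 genes lower and 0 higher, in all genes and in each class, with medians from -0.63 to -0.52 for kept, -0.54 to -0.41 for gained and -0.43 to -0.29 for lost genes. The RNA replicate numbers do not pair the samples (correlation of deviations 0.05 in both pairs), and with the replicate block 5926 genes were lower and 840 higher.

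The cause of these changes was not tested. Depth is unknown for all libraries, so a peak that is not called is not shown to be absent.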
